A study of Mus musculus with 3 samples.

Results

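The clustered protocadherin genes were described here through the Utf1 peaks that fall on them in mouse embryonic stem cells. Members were all listed peaks overlapping, by at least 1 bp, the window from 37.08 to 38.01 Mb on chromosome 18 of the mm9 genome, which was given as holding the protocadherin alpha, beta and gamma gene clusters (Pcdha, Pcdhb and Pcdhg). The window held 112 of 152608 peaks from a precipitation of biotin-tagged Utf1 and 6 of 10506 peaks from a precipitation of endogenous Utf1. Within this window position alone made a peak a member, without use of its width, tags or enrichment. The members as a set were, however, chosen with earlier results of these data known.

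Utf1, undifferentiated embryonic cell transcription factor 1, was precipitated from crosslinked chromatin of KH2 cells, an established mouse embryonic stem cell line, and the DNA was sequenced. All groups were KH2 cells in standard serum medium (15% serum with LIF), and the protocol describes a layer of irradiated CF1 mouse embryonic fibroblasts as feeders, whose share in the chromatin is not given. One group carried Utf1 with a biotin tag, one had endogenous Utf1, and the third was a whole-cell extract, which was not analysed here. Each group had 1 library, so no value has a replicate error and no difference between the lists or between regions has a test. The lists are called the biotin and the endogenous list after their tag labels, because the antibody label of both names the same Utf1 antibody. For the biotin capture the protocol names beads coupled to streptavidin, so the labels leave it unclear which capture the biotin list rests on, and with it what a comparison of the lists compares.

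Clustered protocadherins are cadherin-like adhesion proteins of the cell surface, known above all from neurons, where each cell uses its own small set of them. In the alpha and gamma clusters many variable first exons, each with its own promoter, stand in a row and are spliced to shared constant exons, whereas beta genes are single exons. Promoter choice is known to involve CTCF and cohesin, and Utf1 is known as a chromatin protein of pluripotent cells that occupies many developmental genes. The RefSeq gene table (GRCm38.p6, used for names and order only) lists 14 Pcdha genes from Pcdha1 to Pcdhac2, then 22 Pcdhb genes from Pcdhb1 to Pcdhb22, then 22 Pcdhg genes from Pcdhga1 to Pcdhgc5, of which 21 are protein-coding. Between the beta and gamma genes it places Slc25a2 and Taf7, a mitochondrial carrier and a subunit of the general transcription machinery. Zmat2 precedes the array, and Diaph1 and Hdac3 follow it. Single peaks were not assigned to genes, because that table is of another build than mm9.

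The window was densely and strongly marked in the biotin list. Its 112 peaks (exact 95% Poisson interval 92.2 to 134.8, counting error only) made 120.4 peaks per Mb, against 51.4 per Mb over chromosome 18. They covered 180.2 kb, or 19.4% of the window, against 6.70% of chromosome 18. The median member had a listed fold enrichment of 7.06 (interquartile range 5.04 to 10.3), against 4.14 (3.28 to 6.03) in the whole list. Fold enrichment is the authors' linear ratio for each peak, and how its background was taken is unstated. The median member carried 142 tags (68.3 to 225.8), against 53 (34 to 108) in the whole list, a tag being a sequenced read counted in the peak. Its median width was 1454 bp (1070 to 1787), against 1085 bp (852 to 1599). Members held 17918 tags in all, or 99.3 tags per kb of peak, against 66.6 in the whole list.

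Peaks of large fold were numerous among the members. A fold of 10 or more was listed for 30 of 112 members, 26.8% (exact Clopper-Pearson 95% interval 18.9 to 36.0, counting error only), where 4.73% of the whole list and 5.32% of chromosome 18 reached it. These 30 peaks held 44.5% of the members' tags on 33.7% of their width. They lay between 11.6 and 886.0 kb from the start of the window, 4.21 to 162.2 kb from one strong summit to the next, with a median of 12.9 kb. At the low end, 18 members (16.1%) had a fold under 4, against 46.3% of the other peaks of chromosome 18.

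**Figure D1:**
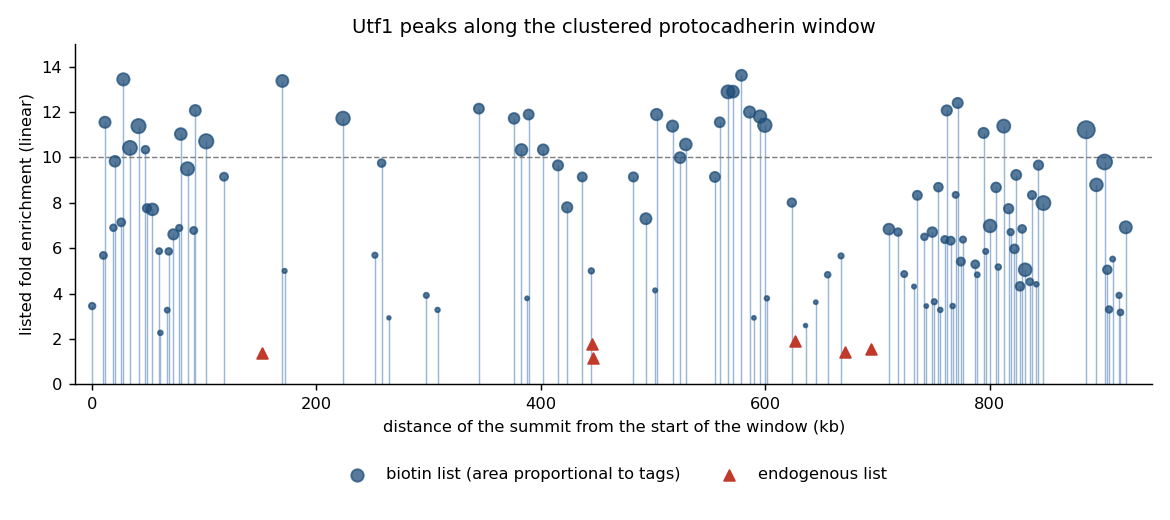
Listed fold enrichment (linear) of every member against the distance of its summit from the start of the window in kb; circles are the 112 biotin peaks with area proportional to tags, triangles the 6 endogenous peaks, and the dashed line marks a fold of 10. The 30 biotin peaks on or above the line stand along most of the window, and the endogenous peaks lie between folds of 1.14 and 1.92.

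The largest fold of a member, 13.62, belonged to chr18:37657739-37659420, with 223 tags (exact Poisson interval 194.7 to 254.3). It was followed by chr18:37106769-37108589 with a fold of 13.44 and 282 tags, and by chr18:37248993-37250941 with a fold of 13.37 and 268 tags (236.9 to 302.1). The intervals of the first and last of these overlap, so their order by tags is not resolved. The neighbours chr18:37650215-37651823 and chr18:37644950-37647516 had folds of 12.9 and 12.89. The next were chr18:37850641-37852136 with 12.4, chr18:37424214-37425887 with 12.15, chr18:37171286-37173195 and chr18:37841249-37842699 with 12.07 each, and chr18:37665026-37666572 with a fold of 12. These 10 peaks had 188 to 318 tags and were 1451 to 2567 bp wide. Their summits lay 28.0 to 771.5 kb from the start of the window. A span of 21.6 kb, from the start of the first peak to the end of the last, held 4 of the 10.

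Tags and fold went together over the 112 members (Spearman's rho 0.82, peaks of 1 library, not independent). Over the 4400 other peaks of chromosome 18 rho was much the same, 0.81. Of the members named for most tags and for largest fold, however, only 1 was the same. The most tags, 547 (502 to 595), were listed at chr18:37965359-37969094, near the far end of the window, with a fold of 11.22. The wide peak chr18:37978889-37982939 followed with 414 tags (375 to 456), and chr18:37179597-37182446 with 383 (346 to 423). At chr18:37119687-37122887 there were 376 tags, and chr18:37112128-37115002 and chr18:37925257-37928595 had 365 each. Next came chr18:37302671-37305073 with 344 tags, chr18:37677832-37680871 with 341, chr18:37164610-37167632 with 325, and chr18:37644950-37647516 and chr18:37890105-37893360 with 318 each. By width the first was chr18:37978889-37982939 with 4051 bp, then chr18:37999224-38003012 with 3789 bp, chr18:37965359-37969094 with 3736 bp, chr18:37974540-37978104 with 3565 bp and chr18:37925257-37928595 with 3339 bp. These 5 widest members all lay from 845.3 kb onwards, at the far end of the window.

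Strong members had a smaller median width than other peaks of like fold on the chromosome. Those with a fold of 10 or more had a median width of 1740.5 bp (interquartile range 1571 to 2359) and a median of 250.5 tags. The 210 other peaks of chromosome 18 at that fold had a median width of 2225 bp (1597 to 3054) and 252.5 tags. Median tags were thus close, with interquartile ranges of 214 to 311.5 in the members and 168.5 to 370.5 in the others. Widths were close at the lower quartile, and at the upper quartile both width and tags were smaller in the members. The tags per kb of peak were 131 and 115. Among the 210, the 11 peaks in the flanks had a median width of 1892 bp and a median of 322 tags. Across members, Spearman's rho was 0.90 between tags and width and 0.63 between fold and width (n = 112 peaks of 1 library, which are not independent). Over the 4400 other peaks of chromosome 18 these were 0.93 and 0.66.

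The density of members varied along the window, about as much as elsewhere on the chromosome. In 31 bins of 30 kb, the share of bases inside a biotin peak ran from 0 to 58.1% with a median of 17.5%. The fullest bins lay at 810 to 840 kb from the start (58.1%), 900 to 930 kb (46.5%), 750 to 780 kb (46.4%), 60 to 90 kb (41.7%) and 30 to 60 kb (40.1%). There were 3 bins that held no biotin peak, at 120 to 150, 180 to 210 and 450 to 480 kb, and the bins at 270 to 300 and 300 to 330 kb were covered to 2.78 and 3.07%. The bins of the flanks ran from 0 to 52.1% and from 0 to 57.7%, with 4 and 3 bins without a biotin peak. The coefficient of variation of the distance between summits, 1.25 in the window, was 28th of 62 windows of chromosome 18 with 20 or more biotin peaks, whose median was 1.19. At least 1 peak with a fold of 10 or more stood in 18 of the 31 bins of the window, and in 4 and 7 of those of the flanks.

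**Figure D2:**
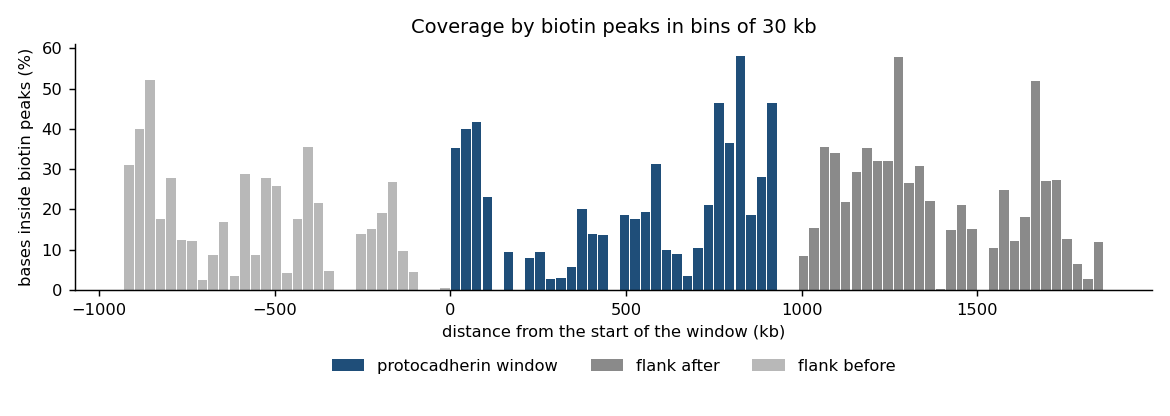
Percent of bases inside biotin peaks in bins of 30 kb, against the distance from the start of the window in kb, for the protocadherin window (31 bins, dark blue) and the equally long flanks before and after it (greys). Within the window the bars are high at both ends, mostly lower between about 120 and 480 kb, and low again between about 600 and 720 kb.

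The 5 longest stretches without a biotin peak parted the members into 6 runs, a division made after the positions had been seen. They were chr18:37198119-37248992 with 50.9 kb, chr18:37252240-37302670 with 50.4 kb, chr18:37748086-37789393 with 41.3 kb, chr18:37928596-37965358 with 36.8 kb and chr18:37525678-37561635 with 36.0 kb. Run 1, chr18:37079843-37198118, held 24 peaks on 118.3 kb, 35.7% of which they covered. Run 2 was a lone pair of peaks at chr18:37248993-37252239. Run 3, chr18:37302671-37525677, was sparse, with 16 peaks on 223.0 kb and a coverage of 10.3%. It still held a free gap of 35.7 kb, nearly as long as the shortest of the 5 used, so its spacing and coverage depend on where the cutting stopped. In run 4, chr18:37561636-37748085, there were 22 peaks on 186.5 kb, and 10 of them had a fold of 10 or more. Run 5, chr18:37789394-37928595, was the most populous, with 39 peaks on 139.2 kb and a coverage of 41.2%. At the end, run 6, chr18:37965359-38003012, had 9 peaks on 37.7 kb, of which they covered 59.4%.

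Enrichment and spacing differed between these runs in size. The median fold was 7.74 in run 1, 9.39 in run 3, 9.57 in run 4, 6.5 in run 5 and 5.52 in run 6. A fold of 10 or more was listed for 8 of 24 peaks in run 1, 33.3% (15.6 to 55.3), for 10 of 22 in run 4, 45.5% (24.4 to 67.8), and for 4 of 39 in run 5, 10.3% (2.87 to 24.2). In run 3 it was 6 of 16 and in run 6 it was 1 of 9. These intervals are descriptions, since the runs and the limit were chosen after the peaks had been seen. Summits stood a median of 5551 bp apart in run 1, 10017 bp in run 3, 7373 bp in run 4, 3164 bp in run 5 and 3978.5 bp in run 6, and the pair of run 2 was 2010 bp apart. Runs 5 and 6 had closer and weaker peaks by these medians than runs 3 and 4.

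Over the whole window, neighbouring summits lay a median of 5189 bp apart (interquartile range 1979 to 8200), and 6368 bp (2856 to 18321) on chromosome 18. In the flanks before and after the window the medians were smaller, 4387.5 bp (2643 to 9009) and 4159.5 bp (2443 to 7879). The free sequence between neighbouring peaks had a median of 2976 bp in the window, against 2905.5 and 2569 bp in the flanks. In 18 of 111 neighbouring pairs of the window it was 250 bp or less, 16.2% (9.90 to 24.4), where 8.05% of the pairs on chromosome 18 lay so close. Run 1 held 8 of these pairs. Over the window the first peak of such a pair had more tags in 7 cases and the second in 11, and on chromosome 18 in 176 and 183 of 363. In run 1 the second peak had more tags in 7 of 8, as at chr18:37089643-37090895 with 93 tags and chr18:37090900-37092457 with 234, only 4 bp further on. In run 5 the first peak had more tags in 4 of 5 pairs, by 1.24 to 3.77 times, as at chr18:37874110-37875742 with 196 tags and chr18:37875816-37876874 with 52.

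Peaks up to 1 kb apart were also joined into stretches. The 112 members gave 81 stretches, of which 29 held more than 1 peak. The longest was chr18:37974540-37987432, 12893 bp with 4 peaks and 937 tags. After it came chr18:37677832-37681968 with 4137 bp and 2 peaks, and then the single peaks chr18:37999224-38003012, chr18:37965359-37969094 and chr18:37925257-37928595 already named for their width. The other stretches of the window were shorter than these.

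In runs 1 and 5 the stretches followed each other in comparatively even steps. The coefficient of variation of the steps was 0.38 in run 1 and 0.34 in run 5, beside 0.72 in run 3, 0.65 in run 4 and 0.52 in run 6, and cutting at the longest gaps lowers all of them. In run 5, 24 stretches stood a median of 5513 bp apart, with steps of 2843 to 12625 bp. Within run 1, from chr18:37079843 to chr18:37182446, 15 stretches stood in a row with each start 5229 to 9800 bp after the last, at a mean of 7125 ± 1439 bp (SD over 14 steps). Only steps of 5 to 10 kb were admitted to the row, which by itself limits this mean and SD. They are therefore no measure of evenness within that range. Each stretch was 1948 to 3251 bp long, and 8 of the 15 were made of 2 peaks. They held 4154 tags, 80 to 401 per stretch with a median of 320, and their largest fold ran from 3.45 to 13.44. The weakest was the first, chr18:37079843-37081790, with 80 tags and a fold of 3.45. The others held 199 to 401 tags, except chr18:37139610-37141693 and chr18:37146539-37149099 with 111 and 134.

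No other row of stretches on the autosomes had as many consecutive steps of 5 to 10 kb. Outside the window the longest had 12 stretches on any autosome and 10 on chromosome 18, among 21097 rows in all. This range of steps was chosen after the row had been seen. Joining peaks within 500 bp or within 2 kb left the row at 15, and the longest elsewhere at 11 and 13. With steps of 4 to 12 kb the row still had 15 stretches, but 10 rows elsewhere were at least as long and the longest had 18. Over the window as a whole the coefficient of variation of the steps was 0.97. It was lower in 21 of 58 other windows of chromosome 18 with 20 or more stretches, whose median was 1.03.

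**Figure D3:**
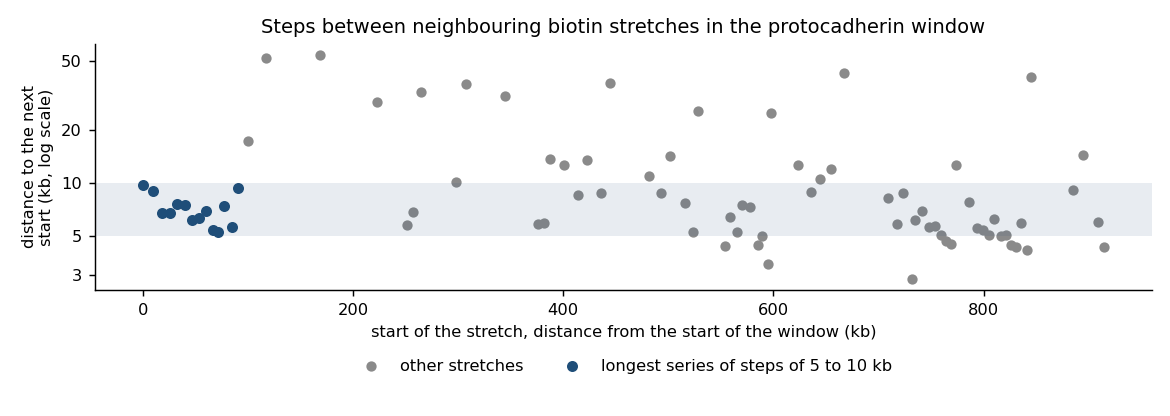
Distance in kb (log scale) from the start of each biotin stretch to the start of the next, against the position of the stretch in kb from the start of the window; peaks up to 1 kb apart were joined into a stretch. The 14 steps of the row of 15 stretches (dark blue) all lie, by the definition of the row, in the shaded band of 5 to 10 kb. The other steps (grey) run from 2.84 to 53.7 kb.

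Wide free sequence bounded the members. The last biotin peak before the window ended at 36962063, 117.8 kb before the first member, and had a fold of 3.92 with 105 tags. The first member reached 157 bp out of the window and had a fold of 3.45 with 80 tags. The last member, at 37999224 to 38003012, had a fold of 6.92 with 272 tags, and the first peak after the window began at 38092071 with a fold of 4.41 and 72 tags. Moving the limits outwards by 50 kb added no peak.

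The flanks had about the coverage of the window, with weaker peaks. The equally long flank before it, which shares the first member, held 103 biotin peaks on 15.8% of its length, and the flank after it 131 peaks on 20.6%. Coverage of the window was 1.07 times the mean of both, which turned to 0.936 with flanks starting 100 kb away, so no direction was resolved. The median fold was 4.24 before, 7.06 in the window and 4.31 after. The median tags were 64, 142 and 63, and the median widths 1262, 1454 and 1163 bp. A fold of 10 or more was listed for 4 of 103 peaks before the window, 3.88% (1.07 to 9.65), and for 7 of 131 after it, 5.34% (2.18 to 10.7), against 26.8% in the window, a difference with no test. Free gaps of 250 bp or less made 7.84% (3.45 to 14.9) and 12.3% (7.20 to 19.2) of the neighbouring pairs, against 16.2% in the window.

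Among windows of chromosome 18 with at least 20 biotin peaks the array ranked first by the strength of its peaks, but not by their density. With the window as 1 of 93 laid end to end along the chromosome, it stood 10th by number of biotin peaks, 8th by coverage and 3rd by the sum of listed tags. The other windows had a median of 32 peaks and a coverage of 3.96%, up to 36.7%. In the 62 windows with at least 20 biotin peaks it had the largest median fold, 7.06, where the others lay between 3.45 and 5.05. It also had the largest median tags, 142 against 34 to 79, and the largest median width, 1454 bp against 849 to 1379 bp. Of the 31 windows with fewer peaks, 4, with 6 to 15 peaks each, had a larger median fold, 2 had a larger median width and 1 had more median tags. The 6 windows closest to it in coverage, 16.7 to 20.6%, had median folds of 4.05 to 4.31 and 3 to 10 peaks with a fold of 10 or more.

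**Figure D4:**
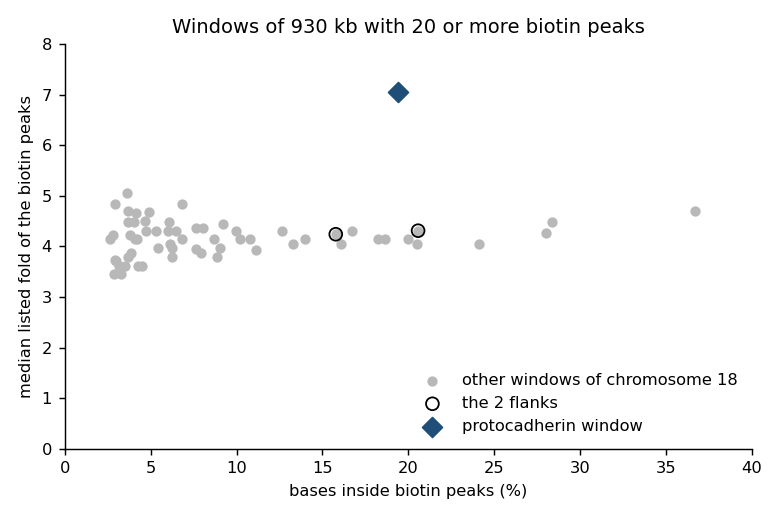
Median listed fold of the biotin peaks against the percent of bases inside biotin peaks, for windows of 930 kb on chromosome 18 with 20 or more biotin peaks. The protocadherin window (diamond) has a median fold of 7.06 at a coverage of 19.4%, above all other windows (3.45 to 5.05), the flanks (open circles) included.

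The same held over all autosomes for the number of strong peaks. None of the other 2585 windows of this length held as many peaks with a fold of 10 or more as the 30 of the protocadherin window. The next had 23, on chromosome 8, then 21 and 20, both on chromosome 4, and those 3 windows held 259 to 274 biotin peaks each, against 112. The median window had 2 such peaks, and 668 windows (25.8%) had none. By the share of strong peaks, 26.8%, it was also first of 1695 windows with at least 20 peaks, narrowly before 26.1%. By median fold and by median tags it was 4th of 1695, by tags per kb of peak 8th and by median width 36th. By coverage it was 345th of 2586. With a fold of 12 or more as the limit, 10 members passed and the window was second.

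**Figure D5:**
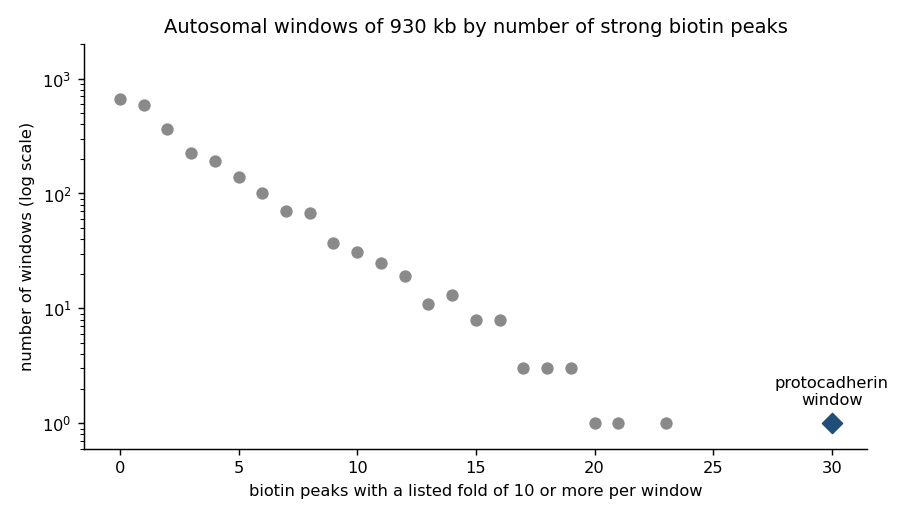
Number of autosomal windows of 930 kb (log scale) by the number of biotin peaks with a listed fold of 10 or more that they hold. The protocadherin window (diamond) holds 30, and the other 2585 windows (grey) hold 0 to 23.

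The endogenous peaks of the window were like those of the rest of their list. Their median fold was 1.49 and their median 14.5 tags, against 1.57 (interquartile range 1.37 to 1.76) and 14 tags in the whole list. Its 6 members (Poisson interval 2.20 to 13.1) made 6.45 per Mb, against 3.70 per Mb over chromosome 18, and covered 0.41% of the window. The flanks held 0 and 2 endogenous peaks, and 10 of the 92 other windows of chromosome 18 held more than 6. The interval of the count includes the chromosome's density, so a difference was not detectable at this number.

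The largest endogenous member was chr18:37706258-37707063, with a fold of 1.92 and 21 tags (13.0 to 32.1). At chr18:37525082-37525664 a fold of 1.76 and 14 tags (7.65 to 23.5) were listed, and 778 bp further on chr18:37526443-37527087 had a fold of 1.14 and 15 tags. The other 3 were chr18:37773585-37774191 with a fold of 1.57 and 14 tags, chr18:37750667-37751271 with 1.41 and 15 tags, and chr18:37231521-37232064 with 1.36 and 13 tags, the smallest count of the list. All tag intervals overlap, so the 6 cannot be ranked by tags. Their listed false discovery rates were 1.27 to 2.13%, where their whole list had a median of 1.51% (interquartile range 1.4 to 1.69) and reached 9.54%. The highest rate in the biotin list was 0.5%, so the lists ended at unlike rates.

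The overlap of the lists in the window was near its background. Of the 6 endogenous members, 1 overlapped a biotin peak, 16.7% (0.42 to 64.1), where 18.8% of the whole endogenous list did. It was chr18:37525082-37525664, on the biotin peak chr18:37524640-37525677 with a fold of 5.00 and 58 tags, and their summits lay 499 bp apart. From the other side, 1 of 112 biotin members overlapped an endogenous peak, 0.893% (0.023 to 4.87), where 1.28% of the whole list did. Both shares include their background, and 6 peaks cannot show a difference from it. Of the 30 biotin members with a fold of 10 or more, 0 overlapped an endogenous peak, where 2.29% of such peaks in the whole list did, a share at which 30 peaks may well show none. The other 5 endogenous members lay 765 bp to 16.9 kb from the nearest biotin peak. By position, 4 of the 6 lay inside the 5 longest biotin-free gaps, which make up 23.2% of the window. These gaps were picked after the positions had been seen, and 6 peaks are too few to show a preference for them.

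The clustered genes are close copies of each other, so a short read from one variable exon may match another. The labels and headers do not say how such reads were placed, and their part in tags and fold was not tested.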

How the data were processed

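Each precipitation had 1 library and 1 deposited peak list, and the whole-cell extract was not analysed here. The build is mm9, and of software the submitters' processing notes name BWA 0.5.7 and R 2.15.2 with no role. The peak caller and control are unnamed (not given in the sources used here). Deposited values of a peak are its tag count, a whole number without depth scaling, its score (10 times −log10 p), its fold (a linear ratio) and its false discovery rate in percent, per the file headers. The lists hold no library totals. Their tags within peaks sum to 14128799 (biotin) and 276084 (endogenous), so depth is unknown.

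Coverage, spacing, stretches (peaks up to 1 kb apart), bins of 30 kb and windows of 930 kb were computed with Python 3.11.15, numpy 2.4.6, pandas 2.3.3 and scipy 1.17.1. A peak on a limit counts in both windows. Windows ran end to end from the array's start on chromosome 18, and from the first listed peak on other autosomes. Counts carry exact Poisson and shares exact Clopper-Pearson intervals at 95%. They cover counting error alone, as PCR copies were not told apart by molecular identifiers. No test was run. Coverage, stretches and overlaps were tested on 20 simulated lists and equalled a base-by-base count. Named peaks were the 10 largest by fold, the 10 with the most tags (ties kept), the 5 widest, the 5 longest stretches and gaps, the fullest and emptiest bins, and all endogenous members. The members, lists and settings were chosen with earlier results of these data known, and the limit of a fold of 10, the runs and the row of even steps after the peaks had been seen.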

Additional observations from a re-analysis of the deposited data

How the results depend on the processing

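There were 16 results with 69 alternative values, of which 55 kept, 13 moved and 1 reversed. Counts and ranks kept if they stayed within 1.5 times the main value. Coverage, tags per kb of peak and the flank ratio kept within the counting interval, and medians within the 95% interval of the median. These limits are wide for few peaks: endogenous coverage of 0.41% counted as kept at 0.21% for the stronger 50%. The ratio of biotin coverage in the window to its flanks, 1.07, reversed to 0.936 with flanks starting 100 kb away, and became 1.38 for the stronger 50% of the list. Without the widest 10% of peaks, coverage of the window fell from 19.4% to 13.4%. The 6 endogenous members became 3 for the stronger 50% of that list, and of the 6, none (0) had a summit within 250 bp of a biotin summit and 2 had a biotin peak within 1 kb. The rank by biotin coverage, 8th of 93, became 345th of 2586 over all autosomes, 4th for the stronger 50% and 3rd by the sum of tags. The rank by endogenous peaks, 11th of 93, became 354th of 2586 over all autosomes and 21st for the stronger 50%. The settings that follow were chosen after seeing the data. A limit of 8 or of 12 in place of a fold of 10 gave 49 and 10 strong members in place of 30, and the rank over autosomes was first and 2nd. Moved windows, and leaving out the widest 10%, kept it first. With steps of 4 to 12 kb the longest row elsewhere went from 12 to 18 stretches, more than the 15 of the window. That value counted as kept, but the row of the window was then no longer the longest. Fewer peaks and more windows follow from these settings, and otherwise the cause was not tested.

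No paired analysis was possible because each group has 1 library, and no replicate was left out for the same reason. Unknown depth, an unstated background behind each fold and the missing gene positions on mm9 limit every statement above.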
